A study of Mus musculus with 8 samples.

Results

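Matrix metalloproteinases and their inhibitors were followed through 9 genes in cultured mouse spermatogonial stem cells: the proteases Mmp2, Mmp3, Mmp9, Mmp10, Mmp13 and Mmp14 and the inhibitors Timp1, Timp2 and Timp3. The genes were taken from a list of names, drawn up with earlier results of these data known. Each had exactly 1 probe set on the array that carried its symbol and no other, out of 19938 genes that could be named in this way, so no choice between probe sets was needed. RNA of these stem cells, from which sperm production is renewed in the testis, was hybridised to 8 Affymetrix arrays in 3 groups. The young short-culture group held 3 arrays of cells from donors of 8 days that had been kept in culture for 7 to 10 weeks. In the young long-culture group, also of 3 arrays, donor age was again 8 days but time in culture was 14 to 18 months. The serial-transplant group held 2 arrays of stem cells that had been passed through recipient testes, labelled as a 1500-day donor, and had then been cultured for 14 to 18 months as well. Whether the 1500 days are the age of 1 donor or of the transplanted line is not clear from the labels. That age and the transplantation occur only together, in the last group, so they cannot be told apart. The sources used here do not give strain, feeder cells or culture medium. Nothing in the labels says whether replicates were separate animals or separate cultures. A p-value therefore reflects the spread among these arrays only, and that spread may be technical.

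Values are log2 signals, so a difference of 1 is a 2-fold change, and the median of all values over the arrays, 6.94, is used below as the mark under which a signal counts as dim. Array medians lay between 6.90 and 6.98. One array was unlike its group: young short-culture replicate 2 correlated at 0.991 and 0.990 with replicates 1 and 3 of that group, which had an r of 0.996. Set against the labelled cell type, Ddx4 and Dazl, which encode RNA-binding proteins of germ cells, were bright on every array and lay between 10.87 and 11.98 and between 12.08 and 12.81. Of the 10 core germ cell markers, all lay above 6.94 on each short-culture array and 8 on each long-culture array. Tex19.1 and Tdrd9 were the exceptions. Markers of fibroblasts, connective tissue cells that make and remodel matrix, were bright on the same arrays: 12 of the 14 measured lay above 6.94 on every array, Lum and Fap being the exceptions. Pdgfra, the gene of a receptor for platelet-derived growth factor, lay between 9.20 and 12.45, and Dcn, a matrix proteoglycan gene, between 10.60 and 13.17. In such bulk RNA, fewer cells of a type and less RNA per cell cannot be told apart.

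Matrix metalloproteinases are zinc-dependent enzymes that cut collagens, laminins and proteoglycans outside the cell, and also release growth factors and cytokines held in the matrix. They are made as inactive proenzymes. TIMPs, the tissue inhibitors of metalloproteinases, bind and block the active site, and on the cell surface Mmp14 together with Timp2 captures and activates the Mmp2 proenzyme. In the testis both families are known from the somatic compartment, where they take part in remodelling basement membrane and cell junctions.

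RefSeq promoters of assembly GRCm38.p6, with 250 bases before and 50 after the start of the gene, were found for 7 of the 9 genes. Mmp2 and Mmp9 had no entry. The promoters found are shown because they were of 2 kinds. Of the genes with the first kind only Mmp3 was bright in the group means, and those with the second were all bright. Mmp2 and Mmp9, of unknown kind, were bright too. A link between promoter kind and signal was not tested. Below are the 100 bases that end just before the start, for Mmp3 (chr9:7445722-7445821, plus strand), Mmp10 (chr9:7502242-7502341, plus strand), Mmp13 (chr9:7272414-7272513, plus strand), Mmp14 (chr14:54431498-54431597, plus strand) and Timp2 (chr11:118355412-118355511, minus strand). Each reads 5′ to 3′ on the strand of the gene, and capitals mark the letters TGANTCA (the AP-1 motif), TATAAA (the TATA box) or GGGCGG (the GC box).
Mmp3: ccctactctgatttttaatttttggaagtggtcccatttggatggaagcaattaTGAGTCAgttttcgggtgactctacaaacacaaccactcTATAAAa
Mmp10: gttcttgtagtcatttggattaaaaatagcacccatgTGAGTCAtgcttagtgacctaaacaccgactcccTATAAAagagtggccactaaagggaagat
Mmp13: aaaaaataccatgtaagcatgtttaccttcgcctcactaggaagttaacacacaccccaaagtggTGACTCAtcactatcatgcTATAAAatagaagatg
Mmp14: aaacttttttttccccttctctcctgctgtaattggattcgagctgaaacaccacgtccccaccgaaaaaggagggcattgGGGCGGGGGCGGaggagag
Timp2: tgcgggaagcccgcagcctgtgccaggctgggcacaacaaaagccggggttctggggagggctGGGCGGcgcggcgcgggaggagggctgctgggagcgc

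Mmp3, Mmp10 and Mmp13 each held the AP-1 motif once and the TATA box once in the 300 bases, and no GC box. The AP-1 motif began 46 bases before the start in Mmp3, 63 in Mmp10 and 35 in Mmp13, and the TATA box followed it in each case, at 7, 29 and 16 bases. Of all 32851 promoters of the same length, 7.81% held the AP-1 letters and 13.6% the TATA letters on either strand. The promoters of Mmp14, Timp1, Timp2 and Timp3 held neither of these, and each had 1 or 2 GC boxes on either strand, which 35.7% of all promoters held. The ETS motif, AGGAAG on either strand, was found in Mmp3, Mmp13, Mmp14, Timp1 and Timp3 and in 35.4% of all promoters, and no match overlapped another motif. The GC content was 37.7% to 43.7% in the first set and 55.0% to 68.7% in the second. A match is a description of the letters and not evidence of a bound factor.

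Long against short culture of cells from 8-day donors asked what more than a year in vitro was accompanied by. Of the 9 genes, 4 were lower after long culture and none was higher: Mmp2, Mmp3, Mmp14 and Timp2 fell by 2.02- to 2.81-fold (n = 3 and 3; limma with Benjamini-Hochberg adjustment over 28944 probe sets, at 0.05). Among all probe sets, 5.83% were called lower and 5.43% higher (1687 and 1573, or 1331 and 1970 with each array centred on its median). The inhibitor Timp1 missed the threshold narrowly, and Mmp9, Mmp10, Mmp13 and Timp3 did not pass. All 9 differences were negative, with a median of -0.94 on the log2 scale, where the median over all 19938 genes was -0.04.

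**Figure D1:**
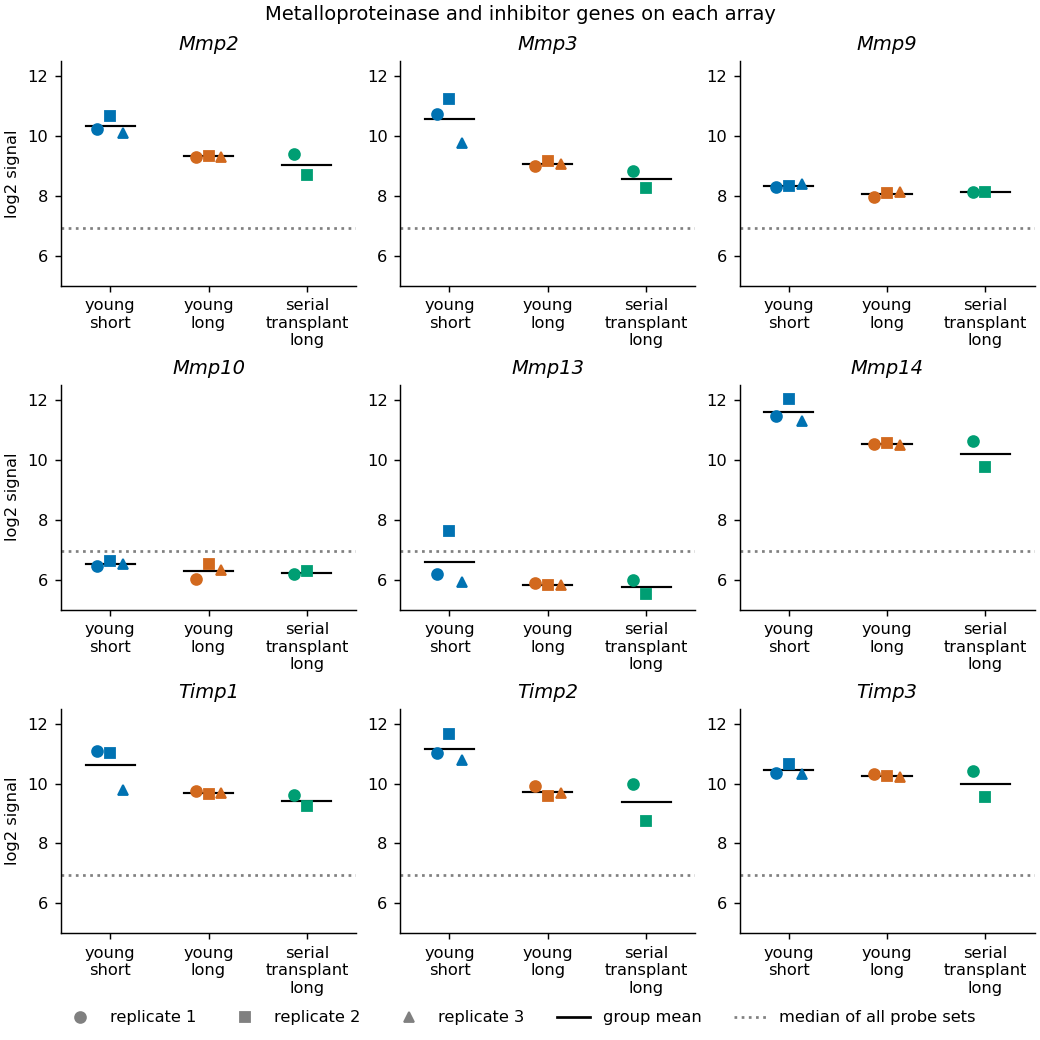
Log2 signal of the 9 genes (one panel each) on each of the 8 arrays, by culture group. Points are arrays, with the marker giving the replicate number, horizontal bars are group means, and the dotted line is the median of all values (6.94). Mmp2, Mmp3, Mmp9, Mmp14, Timp1 and Timp2 lie higher in all 3 young short-culture arrays than in any long-culture array. How many of all genes separate in this way was not counted, and Mmp9 and Timp1 did not pass the test between the young groups. Mmp10 lies below the dotted line on every array, and Mmp13 on every array but young short-culture replicate 2 (7.62).

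The gelatinases Mmp2 and Mmp9 digest denatured collagen and the type IV collagen of basement membranes. Mmp2 (probe set 10573924, chromosome 8) read 10.22, 10.67 and 10.10 in young short culture, 9.31, 9.34 and 9.29 in young long culture, and 9.40 and 8.69 in the serial-transplant arrays. The short-culture arrays lay clear of all 5 long-culture arrays, and the 3 young long-culture arrays were almost level. The group means were 10.33 ± 0.30 (SD, n = 3) and 9.32 ± 0.02 (SD, n = 3), a log2 difference of -1.02 (SE 0.18, 95% confidence interval -1.42 to -0.62; limma adjusted p = 0.00715). Mmp9 (10478633, chromosome 2) read 8.29, 8.33 and 8.39 in young short culture, 7.95, 8.09 and 8.14 in young long culture, and 8.11 and 8.15 in the serial-transplant arrays. Short culture lay above both long-culture groups, which overlapped each other, but the difference of -0.28 (SE 0.09) between the young groups did not pass (limma adjusted p = 0.0854).

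Stromelysins have a broad range of matrix substrates and can activate other metalloproteinase proenzymes. Mmp3, or stromelysin-1 (10583071, chromosome 9), read 10.74, 11.23 and 9.75 in young short culture, 8.99, 9.17 and 9.08 in young long culture, and 8.85 and 8.25 in the serial-transplant arrays. Short-culture replicate 3 was well below the other short-culture arrays and still above every long-culture array. With means of 10.57 ± 0.75 (SD, n = 3) and 9.08 ± 0.09 (SD, n = 3), Mmp3 had the greatest difference of the 9 genes, at -1.49 (SE 0.29, interval -2.13 to -0.85; limma adjusted p = 0.0101), which is 2.81-fold. Mmp10, or stromelysin-2 (10583090, chromosome 9), was dim throughout, reading 6.45, 6.62 and 6.51, then 6.03, 6.53 and 6.33, then 6.18 and 6.29 in the same order of groups. Its young groups overlapped, and the difference of -0.24 (interval -0.51 to 0.04) did not pass (limma adjusted p = 0.269).

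Mmp13, the collagenase that cuts fibrillar collagen in rodents (10583044, chromosome 9), read 6.19, 7.62 and 5.93 in young short culture. The long-culture arrays were all low, at 5.87, 5.81 and 5.81 for young donors and 5.98 and 5.50 for the serial transplant. Only short-culture replicate 2 rose above the mark for dim signals, and the difference of -0.75 (SE 0.33) did not pass (limma adjusted p = 0.180). Without that array it was -0.23. Mmp3, Mmp10 and Mmp13 belong to a run of 10 neighbouring metalloproteinase genes on chromosome 9, in the RefSeq order Mmp13, Mmp12, Mmp1b, Mmp3, Mmp1a, Mmp10, Mmp8, Mmp27, Mmp20 and Mmp7. Of these, Mmp3 and Mmp12 (the macrophage elastase) had a group mean above 6.94, and 1 of the 10, Mmp3, passed the test in young long against short culture. In that comparison 5.83% of all probe sets were called lower and 5.43% higher.

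Mmp14 encodes a membrane-anchored collagenase (10415052, chromosome 14) and read 11.46, 12.04 and 11.31 in young short culture, 10.54, 10.56 and 10.50 in young long culture, and 10.63 and 9.75 in the serial-transplant arrays. As for Mmp2, short culture was clear of long culture and the young long-culture arrays were nearly level. The means were 11.60 ± 0.39 (SD, n = 3) and 10.53 ± 0.03 (SD, n = 3), and the difference was -1.07 (SE 0.22, interval -1.55 to -0.59; limma adjusted p = 0.0122). Without young long-culture replicate 3 the adjusted p was 0.0524.

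Among the inhibitors, Timp2 (10393559, chromosome 11), which blocks metalloproteinases broadly and is also the bridge between Mmp14 and the Mmp2 proenzyme, read 11.03, 11.66 and 10.78 in young short culture. Values were 9.93, 9.58 and 9.69 in young long culture and 9.98 and 8.76 in the serial-transplant arrays. Every short-culture array was thus above every long-culture array. The means of 11.16 ± 0.45 (SD, n = 3) and 9.73 ± 0.18 (SD, n = 3) differed by -1.43 (SE 0.28, interval -2.04 to -0.81; limma adjusted p = 0.0104), or 2.69-fold. Timp1 (10598976, chromosome X), a secreted inhibitor induced by growth factors and cytokines, read 11.10, 11.01 and 9.77 in young short culture, 9.74, 9.64 and 9.68 in young long culture, and 9.61 and 9.24 in the serial-transplant arrays. Its replicate 3 in short culture was close to the long-culture arrays while the other 2 were more than 1 log2 unit higher. The difference of -0.94 (SE 0.28, interval -1.55 to -0.33; limma adjusted p = 0.0514) became -1.37 without that replicate, with an adjusted p of 0.00032. Without short-culture replicate 1 instead it was -0.70. Of the fits with 1 array left out, only that without short-culture replicate 3 passed for Timp1. Timp3 (10365482, chromosome 10), the inhibitor that stays bound to the matrix and also blocks ADAM proteases, read 10.34, 10.65 and 10.32, then 10.30, 10.26 and 10.23, then 10.42 and 9.55. Its young groups lay next to each other without overlap, at a difference of -0.17 (interval -0.58 to 0.23; limma adjusted p = 0.601). The interval leaves out a fall as large as that estimated for Timp2, but the difference between the inhibitors was not tested.

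Serial-transplant long culture against young short culture uses the same short-culture arrays, so it is not independent of the comparison above. Of the 9 genes, 5 were lower and none higher, where 5.15% of all probe sets were called lower and 3.58% higher (1491 and 1037, or 1242 and 1294 after centring). The differences beside those of the first comparison were -1.29 for Mmp2 (limma adjusted p = 0.00528), -2.02 for Mmp3 (adjusted p = 0.00570), -1.41 for Mmp14 (adjusted p = 0.00699), -1.79 for Timp2 (adjusted p = 0.00744) and -1.20 for Timp1 (adjusted p = 0.0352). In folds, Mmp3 was 4.07-fold and Timp2 3.45-fold lower (n = 2 and 3). Mmp9 (-0.21), Mmp10 (-0.30), Mmp13 (-0.84) and Timp3 (-0.46) did not pass. These calls rested on serial-transplant replicate 2: without it, with the remaining array assumed to vary like the other groups, none of the 9 passed, at -0.93 for Mmp2 (adjusted p = 0.0899), -1.70 for Mmp3 (0.107), -0.97 for Mmp14 (0.112) and -1.18 for Timp2 (0.108), and 66 of all probe sets did in place of 2528. Without replicate 1 instead, Timp3 passed (-0.89, adjusted p = 0.0161) and Timp1 did not.

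Between the 2 long-culture groups, which differ in donor and transplant history, none of the 9 genes passed in limma, and 0% of all probe sets were called lower and 0% higher. No member had an unadjusted p under 0.05, against 2079 of all probe sets (7.18%). The estimates were negative for 8 of the 9 genes, with a median of -0.27, the largest being -0.53 for Mmp3 (interval -1.25 to 0.19; adjusted p = 0.789). Mmp3 was lower in both serial-transplant arrays than in any young long-culture array, as was Timp1. For Timp1 the nearest arrays of the groups read 9.61 and 9.64. How many of all genes separate in this way was not counted, so this is not a result about these genes. For Mmp2 the estimate was -0.27 (interval -0.72 to 0.18), for Mmp14 -0.34 (-0.88 to 0.19) and for Timp2 -0.36 (-1.05 to 0.33), and all 3 turned positive without serial-transplant replicate 2. Any difference within these intervals is compatible with the data, so 2 arrays against 3 do not show that the groups are equal.

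**Figure D2:**
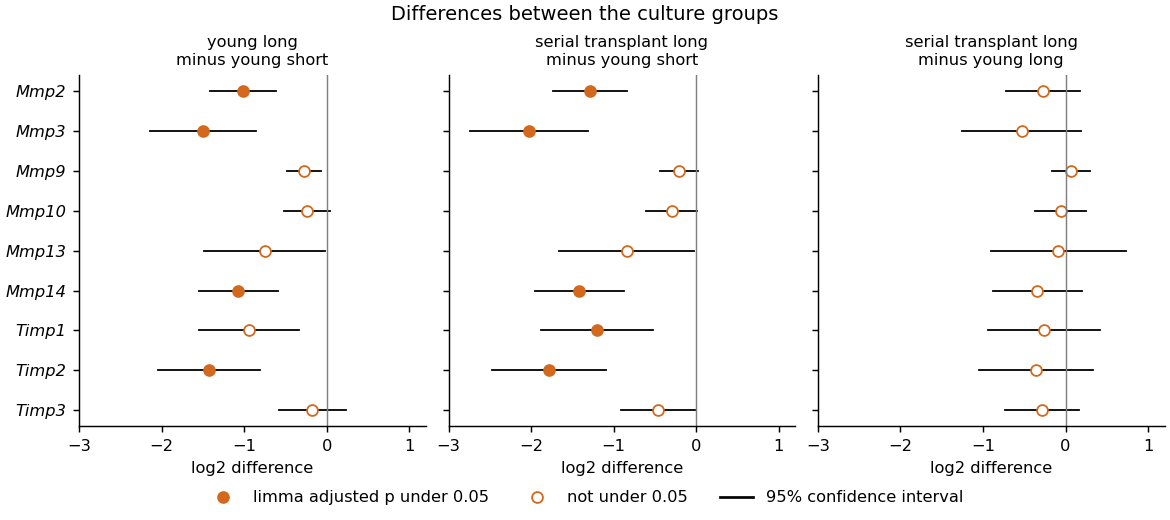
Log2 differences of the 9 genes in the 3 comparisons, with 95% confidence intervals from limma as horizontal lines. Filled points passed an adjusted p of 0.05: 4 genes in young long minus young short culture, 5 in serial-transplant long minus young short culture, and none in serial-transplant minus young long culture, where every interval spans 0.

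Arrays of 1 group also differed from each other in these genes. Relative to each gene's mean over the 8 arrays, the median deviation of the 9 genes was 0.59, 1.04 and 0.21 in young short culture, -0.25, -0.29 and -0.29 in young long culture, and -0.20 and -0.73 in the serial-transplant arrays. Short-culture replicate 2 was the highest of its group for 7 of the 9 genes, Timp1 and Mmp9 being the exceptions. Serial-transplant replicate 1 exceeded replicate 2 for 7 of the 9, by 1.22 for Timp2, 0.88 for Mmp14 and 0.87 for Timp3. Leaving out short-culture replicate 2 kept the 4 calls of the young comparison, at -0.85 for Mmp2, -1.16 for Mmp3, -0.85 for Mmp14 and -1.17 for Timp2.

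The fibroblast markers moved with these deviations. Their median deviation was 0.49, 0.86 and 0.31 in young short culture, -0.22, -0.24 and -0.23 in young long culture, and -0.24 and -0.85 in the serial-transplant arrays, and their mean signal ranged over 9.85 to 10.39, 9.31 to 9.37 and 8.78 to 9.35 in the 3 groups. In young long against short culture 11 of the 14 measured markers were lower and none higher, with a median of -0.73. Pdgfra (-1.50, limma adjusted p = 0.0105), Dcn (-1.16, adjusted p = 0.0138) and Col1a2 (-1.04, adjusted p = 0.00551) were among those that fell. In the serial transplant against young short culture 10 were lower, with a median of -1.10, and between the long-culture groups none passed, with a median of -0.22. The core germ cell markers had deviations between -0.26 and 0.26 and were lowest in short-culture replicate 2 and highest in serial-transplant replicate 2. The part of the fibroblast signal in the differences of the metalloproteinase and inhibitor genes was not tested.

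**Figure D3:**
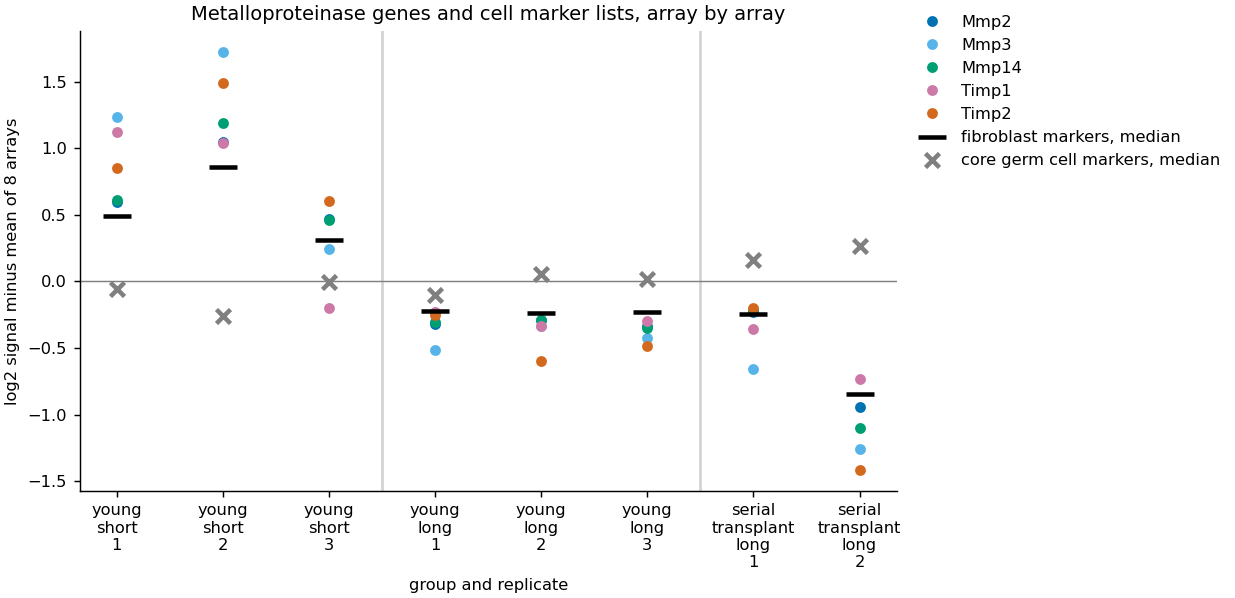
Log2 signal minus the 8-array mean for Mmp2, Mmp3, Mmp14, Timp1 and Timp2 (points) on each array, with the median deviation of the 14 fibroblast markers (black bars) and of the 10 core germ cell markers (grey crosses). The fibroblast bars are highest in young short-culture replicate 2 (0.86) and lowest in serial-transplant replicate 2 (-0.85), where Timp2, Mmp14 and Mmp3 are also at their extremes.

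Markers of other cells that the cultures could hold were counted in the same way for young long against short culture. Among all probe sets, 5.83% were called lower and 5.43% higher there. Of 12 macrophage and leukocyte markers, 5 were lower (Laptm5, Ptprc, Fcer1g, Tyrobp and Itgb2), with median deviations of 0.09 to 0.58 in short culture and -0.25 to -0.10 in long culture. The macrophage gene Adgre1 was dim on every array, between 4.30 and 4.58. Cd68, of the same list, was above 6.94 on every array, between 7.03 and 7.98. Its mean was 7.56 in both young groups. Of 9 mast cell markers, Cpa3, Mcpt4 and Tpsb2 were lower and Kit, which is also a spermatogonial gene, was higher. Of 5 Leydig cell markers, Cyp11a1, Star and Nr5a1 were lower. Among these called genes, Tyrobp, Mcpt4 and Nr5a1 had no group mean above 6.94. Of 7 myoid markers, Acta2 and Cald1 were lower and Myh11 higher, and of 11 Sertoli cell markers Inhba was lower and Aard and Wt1 higher. None of 7 endothelial markers passed, and at most 1 of them was above 6.94 on any array. Undifferentiated spermatogonia markers were split, with 3 of 15 higher (Nanos3, Lin28a and Ret) and 3 lower (Id4, Bcl6b and Lhx1), and of 10 core germ cell markers Dazl was higher and Tex19.1 and Tdrd9 lower. The part of these cell types in the results was not tested either. These genes were named after their values were seen.

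Mmp2 and Mmp14 had the most similar profiles of the 36 pairs that the 9 genes form, with a Pearson r of 0.998 over the 8 arrays. Mmp14 and Timp2 followed at 0.993 and Mmp2 and Timp2 at 0.991, so the genes of the known surface activation complex made up the 3 pairs with the highest r. When each group's mean was taken out, r was 0.9996 for Mmp2 and Mmp14, 0.967 for Mmp14 and Timp2 and 0.965 for Mmp2 and Timp2. Mmp3 was most like Mmp2 (0.965) and, within groups, most like Timp1 (0.908). Mmp9 and Timp3 were the least alike, at 0.267. Within groups Mmp9 had a negative r with all other members except Mmp10 (0.714), from -0.485 with Timp1 to -0.198 with Mmp13, and Mmp10 lay between -0.207 and 0.188 with the members other than Mmp9. These are descriptions over arrays that share 3 groups, each array being 1 labelled RNA. Many other genes also had a high r. Of 11101 other genes with a group mean above 6.94, 384 (3.46%) had an r above 0.95 with Mmp2. The count was 358 (3.22%) with Mmp14, 337 (3.04%) with Timp2 and 363 (3.27%) with Mmp3. The cutoff of 0.95 is lower than the r of the 3 highest pairs. How many other genes reached the r of those pairs was not counted.

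By the same measure over the 8 arrays, the genes most like Mmp2 were Ahnak2 (0.998), Ddr2, a collagen receptor (0.997), and Tmem176b (0.997). Ahnak2 was also first for Mmp14 (0.998), followed by Pdgfra (0.998) and Dcn (0.997), both on the fibroblast list. Timp2 was closest to B2m, the light chain of class I antigen-presenting molecules (0.997), the nuclear receptor Nr2f2 (0.997) and App (0.996). Mmp3 was closest to Rhobtb3 (0.997), the nuclear receptor Nr2f1 (0.994) and the DNA sensor Aim2 (0.994). Timp1 had other neighbours, Echs1 (0.991), Stim2 (0.987) and Cux1 (0.986), and fewer genes above 0.95, 71 of the 11101 (0.640%). Mmp9, with Cybc1 (0.959), Snx21 (0.954) and Patl2 (0.952), had 4 genes above 0.95, and Timp3, with Map3k14 (0.973), Cenpb (0.948) and Gata2 (0.939), had 1. Mmp10 and Mmp13 were too dim for such a comparison.

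The rest of the metalloproteinase family gave little signal. For the list counts below, 5.83% of all probe sets were called lower and 5.43% higher in the young comparison. In the serial transplant against young short culture these shares were 5.15% and 3.58%. Of 16 other family members measured, 5 had a group mean above 6.94 and 2 were lower after long culture of young-donor cells: Mmp19, a protease of stromal and vascular tissue (-1.04, limma adjusted p = 0.0125), and the membrane-anchored Mmp17 (-0.35, adjusted p = 0.0446). Mmp19 read 7.77, 8.12 and 7.13 in young short culture and between 6.19 and 6.70 in the 5 long-culture arrays. In the serial transplant against young short culture Mmp19 (-1.22, adjusted p = 0.0108) and the membrane-type Mmp16 (-1.02, adjusted p = 0.0332) were lower. Of 9 genes listed as other inhibitors, 2 were lower and 2 higher in the young comparison. Reck, a membrane-anchored inhibitor of metalloproteinases, fell (-0.76, adjusted p = 0.00290), and A2m, a circulating trap for many proteases, rose (1.74, adjusted p = 0.00684). A2m read 6.61, 6.50 and 7.41 in young short culture, 8.36, 8.98 and 8.41 in young long culture, and 8.17 and 9.40 in the serial-transplant arrays. The other two, Pcolce (-0.88, adjusted p = 0.0317) and Pcolce2 (0.64, adjusted p = 0.00639), encode enhancers of procollagen processing rather than inhibitors. Against young short culture the serial transplant was lower in Reck (-0.80, adjusted p = 0.00444) and Pcolce (-1.26, adjusted p = 0.0129) and higher in A2m (1.95, adjusted p = 0.00778).

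Plasmin, formed by plasminogen activators, can start the activation of metalloproteinase proenzymes. Of 6 genes of that system, Plat, the tissue plasminogen activator, was higher after long culture (0.46, limma adjusted p = 0.0233) and Serpinb2, an inhibitor of plasminogen activators, was lower (-0.53, adjusted p = 0.0493). Serpinb2 was dim on every array, between 4.70 and 5.63. In the serial transplant against young short culture Plat was higher by 1.07 (adjusted p = 0.00172) and Plau, the urokinase gene, lower (-0.60, adjusted p = 0.0185). Activators, docking partners and uptake receptors were lower in 6 of 11 cases and higher in none in the young comparison, with a median of -0.67. They included Lrp1, which takes up secreted proteases and their complexes (-0.76, adjusted p = 0.0178), and the integrin chain gene Itgav (-0.67, adjusted p = 0.0194). Against the same short-culture arrays the serial transplant had 7 lower, with Itgav at -0.94 (adjusted p = 0.00823) and Lrp1 at -1.02 (adjusted p = 0.00880), and 1 higher, Itgb3 (0.44, adjusted p = 0.0471). ADAM and ADAMTS proteases, relatives that shed surface proteins or cut proteoglycans, were lower for 6 of 16 and higher for none in both comparisons. The smallest p-values were those of Adamts4 (-0.61, adjusted p = 0.00417) and Adam8 (-0.72, adjusted p = 0.00498) in the first, and of Adam8 (-0.71, adjusted p = 0.00861) and Adamts5 (-1.10, adjusted p = 0.0139) in the second.

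Of 21 matrix substrates, 10 were lower and 2 higher in young long against short culture, with a median of -0.50. Nid1, which links laminin to collagen IV in basement membranes, fell by 1.15 on the log2 scale (limma adjusted p = 0.000595) and the collagen I chain gene Col1a2 by 1.04 (adjusted p = 0.00551). The laminin chain genes Lama1 (0.53, adjusted p = 0.00869) and Lama5 (0.70, adjusted p = 0.0220) rose. In the serial transplant against young short culture 13 were lower, Nid1 (-1.12, adjusted p = 0.00155) and Col1a2 (-1.26, adjusted p = 0.00499) with the smallest p-values, and the 2 laminin genes were again higher. The fibroblast list shares 5 genes with this one. The motifs sought in the promoters included those of AP-1 and ETS factors. Of 12 such genes, Fosl2 (-0.66, adjusted p = 0.00614), Fosl1 (-0.71, adjusted p = 0.0444) and Etv1 (-1.05, adjusted p = 0.0495) were lower and Ets1 (0.49, adjusted p = 0.0233) higher in the young comparison. Only Fosl2 passed in the serial transplant against young short culture (-0.62, adjusted p = 0.0136). Of 17 inducing cytokines and their receptors, 6 were lower and none higher, with the receptor genes Tgfbr2 (-1.14, adjusted p = 0.00502) and Tnfrsf1a (-0.78, adjusted p = 0.00514) at the smallest p-values. In the serial transplant 5 were lower, led by Tgfbr2 (-1.33, adjusted p = 0.00510) and Osmr, a receptor for oncostatin M (-1.54, adjusted p = 0.00874). Between the long-culture groups no gene of any of these lists passed.

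**Figure D4:**
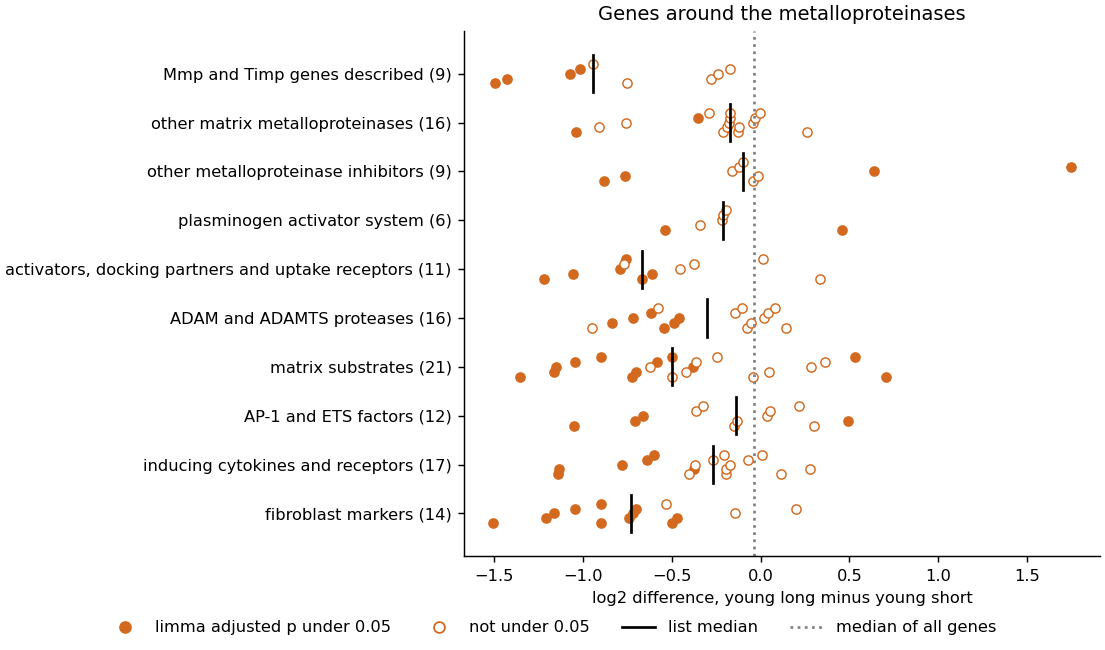
Log2 difference between young long and young short culture for every measured gene of 10 lists, with the number measured in brackets. Filled points passed an adjusted p of 0.05 in limma, black bars are list medians and the dotted line is the median of all genes (-0.04). The medians of the 9 metalloproteinase and inhibitor genes (-0.94), of the fibroblast markers (-0.73) and of the activators and docking partners (-0.67) lie farthest to the left, and A2m is the point farthest to the right.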

How the data were processed

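Total RNA of cultured cells was hybridised to 8 Affymetrix arrays. The authors deposited log2 values, made by RMA (background correction, normalization across arrays, a summary over probes) in Partek 6.4 per the submitters' processing notes. They come without detection calls, and dim values may be background. RMA settings and the genome build: not given in the sources used here.

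Of 35557 rows, 6613 that precede the first named probe set in the numbering were taken to be controls and left out. Of the 28944 tested, 21789 had 1 gene symbol in the platform annotation, 1621 had several and 5534 none. Symbols were looked up by gene number in RefSeq (GRCm38.p6), where 21698 were found. A gene was represented by its brightest probe set.

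All 3 groups entered 1 fit with limma 3.58.1 in R 4.3.3 (lmFit, contrasts, eBayes). Residual degrees of freedom were 5, with 6.28 from the prior. Tests were two-sided, and a probe set was called at a Benjamini-Hochberg adjusted p under 0.05 over the 28944, whatever its fold. "Lower", "higher", "fell" and "rose" of a gene's call refer to this test. The step was tested on simulated data first. Errors of means are SD and of differences SE. The number of arrays limits the precision. Members and gene lists were chosen with earlier results of these data known, and lists are described by counts and medians only. Named genes were all 9 members, up to 2 called genes with the smallest p of each pathway list (all of a list with 3 or fewer called), and the 3 genes most correlated with each bright member. A2m, Pcolce, Fosl1, Etv1, Lama1, Lama5, Itgb3 and the fibroblast examples were named beyond that rule, after their values were seen. Same-numbered replicates were not paired: the correlations of their deviations from the group means were 0.08, 0.18 and 0.10 in the young groups. Alternatives covered the prior, array weights, arrays in the fit, dim probe sets, scaling, a fold requirement, the replicate block, each array left out, and several probe sets of a gene. Protein sequences, scanner files and scan dates were not used here.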

Additional observations from a re-analysis of the deposited data

How the results depend on the processing

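The calls of Mmp2, Mmp3 and Timp2 in young long against short culture held under all 17 alternatives run for each, that of Mmp14 under 16 of 17, and Timp1 passed under 5 of 17. The number of the 9 genes called was 3 to 6 when 1 array was left out (3 without young long-culture replicate 3, 6 without young short-culture replicate 3, which added Timp1 and Mmp13) and 4 or 5 otherwise. For the serial transplant against young short culture it was 0 (without serial-transplant replicate 2) to 5 when 1 array was left out, and 4 or 5 otherwise. Between the long-culture groups it was 0 under all alternatives. In that comparison 6 differences changed sign, and the cause was not tested. Without serial-transplant replicate 1 or 2 they ranged from -0.63 to 0.085 for Mmp2, from -0.33 to 0.15 for Mmp13, from -0.78 to 0.097 for Mmp14, from -0.97 to 0.25 for Timp2 and from -0.72 to 0.15 for Timp3. Mmp10 ranged from -0.19 without young long-culture replicate 1 to 0.057 without replicate 2.

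With the replicate number as a block, 5, 0 and 5 of the 9 genes were called (young long against short, serial transplant against young long, serial transplant against young short), and 2754, 4 and 2468 of all probe sets. Counts over all probe sets moved by over 1.5 times with array weights (5079) and a log2 change of at least 1 (396) and without young long-culture replicates 1 (1383) and 3 (1085), against 3260. They did so in the serial transplant against young short culture with only the compared arrays (1252), a log2 change of at least 1 (564) and without serial-transplant replicates 1 (1528) and 2 (66), against 2528. Between the long-culture groups 22 passed with array weights, 15 with only the compared arrays and 11 without young short-culture replicate 2. Centring arrays on their medians gave 1970 higher and 1331 lower in the young comparison, against 1573 and 1687, and 1294 and 1242 in the serial transplant against young short culture, against 1037 and 1491. Leaving out a serial-transplant array leaves a lone array assumed to vary like the other groups.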
